A study of Rattus norvegicus with 38 samples.

Results

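Galectins are lectins that bind beta-galactoside sugars on the glycoproteins of cell surfaces and matrix, and the rat genes measured here were Lgals1, Lgals3, Lgals5, Lgals8 and Lgals9. Their probesets (sets of short probes that together measure a transcript) were taken as every probeset that the platform annotation pairs with any of the 5 symbols. That gave 6 of the 15866 non-control probesets on the heart array (Affymetrix RAE230A) and the same 6 of 31042 on the array used for peripheral blood mononuclear cells (PBMC; RAE230 2.0). Lgals1 (1367628_at) and Lgals3 (1386879_at) had 1 probeset each and Lgals8 had 2 (1368960_at and 1389329_at). Lgals9 had 1 of its own (1387027_a_at), and 1369716_s_at was paired with both Lgals9 and Lgals5 and is called the shared Lgals9/Lgals5 probeset below. Its target transcript in the annotation is that of Lgals5, which had no probeset of its own, so the array alone cannot assign its signal to either gene.

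The samples came from a rat heart transplant model without gene modification, in which Dark Agouti (DA) donor hearts were placed in the abdomen of Brown Norway (BN) recipients, which reject them, or of DA recipients, which do not. On post-transplant day 6 there were 5 allograft hearts and the 5 native hearts of the same BN recipients, and 4 isograft hearts with the 4 native hearts of the same DA recipients. Blood gave PBMC of 5 BN rats with an allograft and 9 DA rats with an isograft, and of 3 BN and 3 DA rats without a transplant. Allograft tissue is a DA heart that also holds cells of the BN recipient, native BN hearts all came from allograft recipients, and PBMC of transplanted and untransplanted rats were processed as separate batches, so those 2 sets were not tested against each other. In tissue and PBMC arrays more cells of a type and more RNA per cell cannot be told apart.

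Galectin-1 and galectin-3 are small secreted and cytoplasmic lectins with a single sugar-binding domain, and galectin-3 also carries a tail through which it forms oligomers. Galectin-3 is an abundant product of macrophages, galectin-1 is made by many stromal and immune cells, and galectin-8 and galectin-9 join a pair of different sugar-binding domains in 1 chain. Galectin-9 is induced by interferon gamma and binds T cells, whereas galectin-5 is a single-domain lectin known from rat red cells and reticulocytes. Galectin-3 binding protein (Lgals3bp), a secreted glycoprotein, is a ligand of several of them.

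Signals are given in array medians (the deposited signal over the median of the array's non-control probesets), and levels of different probesets are not compared. A probeset is said to have changed where limma's p-value, after Benjamini-Hochberg adjustment across the whole array, did not exceed 0.10. It is said to be called where it also differed at least 3-fold and where 50% or more of the samples in either group reached the array median. All 6 probesets lay above the array median on all 18 heart and all 20 PBMC arrays. The lowest member signal was 1.29 array medians in heart and 2.32 in PBMC. The labelled tissues held their markers, as 7 cardiomyocyte genes summed to at least 93.0 array medians in every heart and to at most 2.72 in every PBMC sample.

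The rejection comparison set allograft against isograft hearts. Of the 6 galectin probesets 2 were higher, where 20.3% of all probesets were, and none were lower, where 21.2% were. Only Lgals3 was called, against 8.86% of all probesets called in either direction. At an unadjusted p under 0.05 in limma the same 2 probesets differed.

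Lgals3 signals in the 5 allografts were 90.7, 101, 58.6, 74.9 and 83.3 array medians. The 4 isografts had 14.7, 19.8, 10.9 and 15.6, the native DA hearts 4.64, 5.07, 5.89 and 6.59, and the native BN hearts 4.15, 7.82, 9.16, 5.66 and 8.69. Each allograft lay above each isograft and each isograft above each native heart, while both kinds of native heart overlapped. Lgals3 was 5.39-fold higher in allografts than in isografts (log2 difference 2.43 ± 0.24 SE, n = 5 and 4, limma adjusted p = 7.03e-07). It was 2.71-fold higher in isografts than in native DA hearts (1.44 ± 0.25, n = 4 and 4, limma adjusted p = 0.00374). Against the native hearts of the same BN recipients the allografts were 11.8-fold higher (3.56 ± 0.23, n = 5 and 5, limma adjusted p = 2.88e-09), with a strain difference in the tissue included. Within single recipients the graft exceeded the native heart by 6.40 to 21.8-fold in the 5 BN rats and by 1.84 to 3.91-fold in the 4 DA rats.

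**Figure D1:**
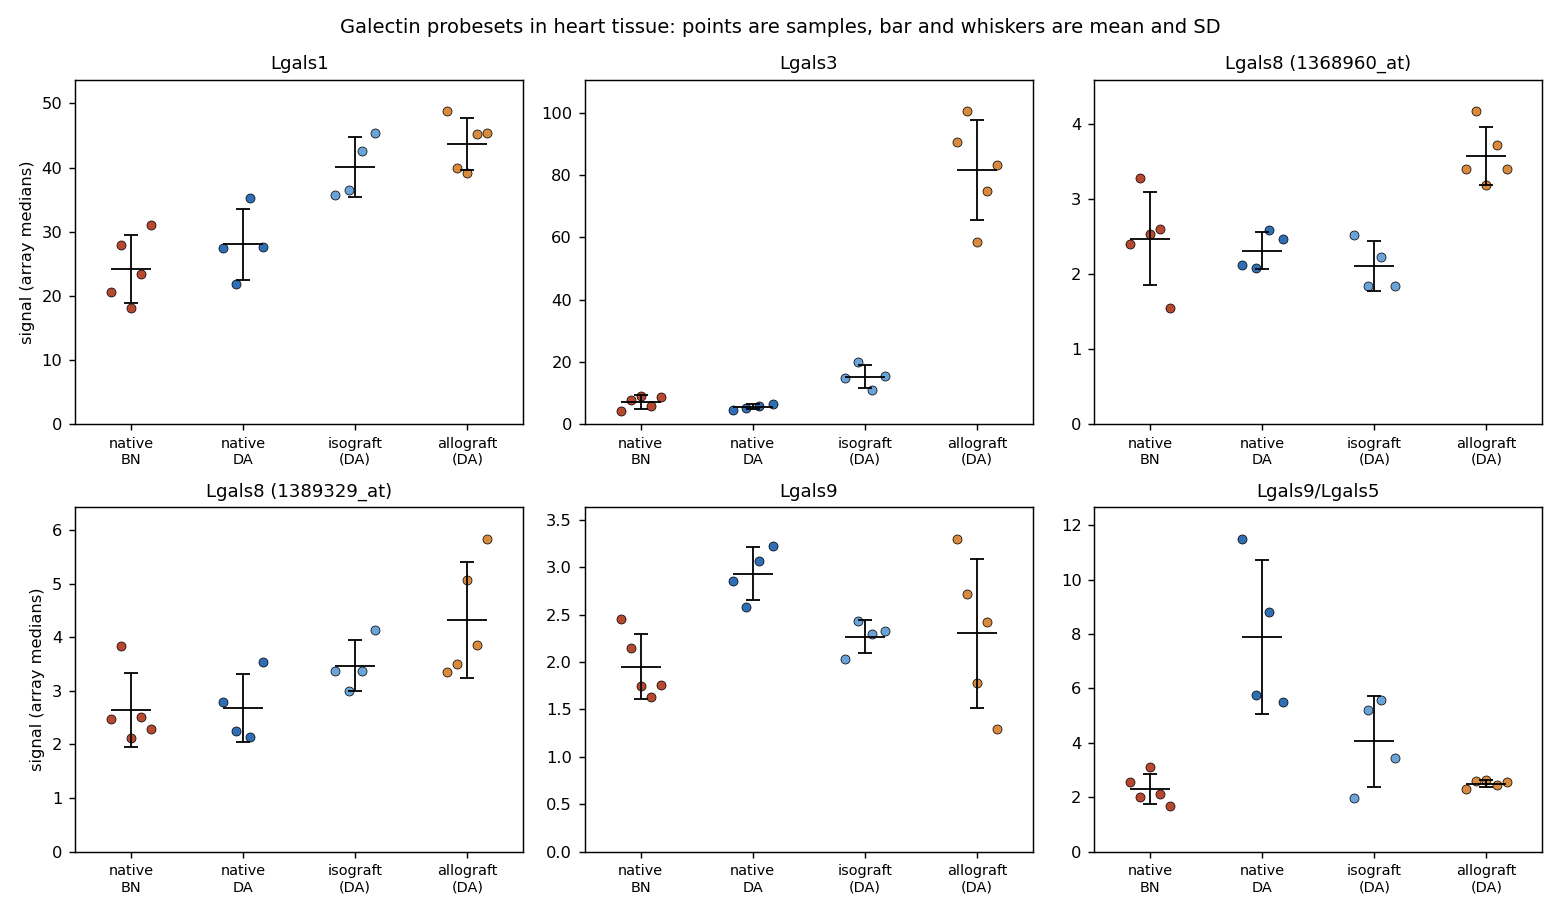
Signal in array medians (vertical axes, each starting at 0) of the 6 galectin probesets in the 4 heart groups; each point is a heart, and the long bar and whiskers are the mean and SD. Lgals3 in the 5 allografts lies between 58.6 and 101, above every other heart, and the shared Lgals9/Lgals5 probeset is highest in the 4 native DA hearts, between 5.49 and 11.5.

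Between native BN and native DA hearts the Lgals3 difference was 0.31 ± 0.24 (limma adjusted p = 0.617), with a 95% interval from -0.20 to 0.82 on the log2 scale. The effect of allograft over isograft in transplanted hearts therefore exceeded that of BN over DA in native hearts by 2.12 ± 0.34 on the log2 scale (limma adjusted p = 0.000245). Of the 6 probesets 3 changed in this test of the difference, against 29.7% of all probesets, and 1 was called, against 8.43%.

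Markers of monocytes and macrophages moved with Lgals3. All 6 measured genes of that list were higher in allografts than in isografts, with a median log2 difference of 2.77 against 0.02 over all probesets. They include Cd68, a lysosomal protein of macrophages (3.03 ± 0.32), and the complement C1q chains C1qc (3.14 ± 0.23), C1qa (2.77 ± 0.18) and C1qb (2.76 ± 0.27). Their summed signal was 244 to 415 array medians in allografts, 52.3 to 83.5 in isografts, 23.5 to 33.5 in native DA and 27.7 to 44.3 in native BN hearts. The groups thus stood in the same order as for Lgals3, apart from an overlap of native hearts, and the part of these cells in the Lgals3 result was not tested. All 6 were also higher in isografts than in native DA hearts, with a median of 1.00.

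The genes with a profile nearest to that of Lgals3 over the 18 heart arrays were Gm2a, Sat1 and Fcer1g. Their log2 signals, centred over the arrays, differed from those of Lgals3 by a root mean square of 0.26, 0.27 and 0.31. They were found among 8206 probesets that have a single symbol and reach the median on 50% or more of any group's arrays.

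Lgals3bp, the galectin-3 binding protein, was higher by 1.68 ± 0.18 on the log2 scale in allografts than in isografts (limma adjusted p = 1.33e-06) and by 1.04 ± 0.19 in isografts than in native DA hearts (adjusted p = 0.0041). Among the 6 measured genes of the list of other galectins and this protein, the only other change in rejection was in the galectin-related gene Lgalsl, which fell by 0.80 ± 0.16. The list median was 0.31. The differences of Lgals2, Lgals4, Lgals7 and Grifin did not pass the test, with values of 0.98, 0.52, 0.10 and -0.18 on the log2 scale.

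The Lgals8 probesets were read separately in the rejection comparison. Signals of 1368960_at in allografts were 3.40, 4.17, 3.18, 3.72 and 3.39 array medians, and those in isografts were 2.52, 1.83, 2.22 and 1.83. The groups did not overlap, and the 1.71-fold difference passed the test (0.77 ± 0.19, limma adjusted p = 0.00339). The second probeset, 1389329_at, ranged from 3.34 to 5.84 in allografts and from 3.00 to 4.13 in isografts, with a difference of 0.29 ± 0.21 (adjusted p = 0.327). The change in their within-array ratio was 0.48 on the log2 scale and did not reach significance (exact permutation test, two-sided, p = 0.143, adjusted p = 0.299 over 12 tests of this kind), so a difference in response between both probesets was not shown.

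Lgals1 was high in every heart and changed less. It ranged from 39.2 to 48.8 array medians in allografts and from 35.7 to 45.3 in isografts. The rejection difference was 0.13 ± 0.17 (limma adjusted p = 0.616, 95% interval -0.24 to 0.50 on the log2 scale). After quantile normalization it was 0.34 with an adjusted p of 0.0749.

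Lgals9 differed by -0.05 ± 0.22 between allografts and isografts (adjusted p = 0.891, 95% interval -0.52 to 0.42). Allografts with 3.30, 2.72, 1.78, 2.42 and 1.29 array medians spanned the isografts at 2.03, 2.43, 2.29 and 2.33. In the same hearts 8 of the 10 measured interferon-induced genes were higher in allografts, with a median log2 difference of 1.75. Examples are Gbp2, a guanylate-binding protein (2.99 ± 0.25), the T cell chemokine Cxcl10 (2.39 ± 0.34), the immunoproteasome subunit Psmb9 (2.32 ± 0.23) and the peptide transporter Tap1 (2.25 ± 0.48). Galectin counter-receptors and ligands were higher in 12 of 16 measured genes and lower in 2, with a median of 2.07. They were led by the integrin chain Itgam (4.62 ± 0.20), the costimulatory receptor Cd40 (3.62 ± 0.40), the sialoglycoprotein Spn (2.95 ± 0.56) and the T cell adhesion molecule Cd2 (2.76 ± 0.33). Among enzymes that branch or cap glycans, and so make or mask galectin ligands, 6 of 14 were higher and none lower, with a median of 0.48. Man2a1, a Golgi mannosidase, differed by 1.93 ± 0.47 and the sialyltransferase St3gal4 by 1.82 ± 0.38.

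Other cell type lists shifted between the same hearts. All 8 measured T cell genes were higher in allografts, with summed signals of 19.4 to 43.0 array medians against 4.75 to 5.74 in isografts, and 3 of 3 neutrophil genes and 4 of 5 NK and cytotoxic cell genes were higher. All 7 cardiomyocyte genes were lower, and their sum was 93.0 to 243 against 453 to 806. Of 7 fibroblast genes 5 were lower and none higher, with a median of -2.40 and sums of 25.1 to 243 array medians against 209 to 268, led by the growth factor receptor Pdgfra (-3.13 ± 0.73) and the matrix proteoglycans Lum (-2.56 ± 0.56) and Dcn (-2.43 ± 0.44). Of 4 smooth muscle genes 2 were lower, Tagln (-1.99 ± 0.66) and Myh11 (-1.63 ± 0.24). The part of these cells in the galectin results, that of Lgals1 included, was not tested.

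The surgical comparison set isograft against native hearts of the same DA recipients. Of the 6 galectin probesets 2 were higher (7.15% of all probesets were) and 1 was lower (6.59% were). None were called, against 0.908% of all probesets, and at an unadjusted p under 0.05 the same count of 3 differed. Beside Lgals3, Lgals1 was 1.44-fold higher in isografts (0.53 ± 0.18, limma adjusted p = 0.0891). The isografts had 35.7, 36.6, 42.5 and 45.3 array medians and the native DA hearts 27.4, 21.8, 35.2 and 27.7, and no isograft fell among the native hearts. The shared Lgals9/Lgals5 probeset fell by 1.01 ± 0.30 on the log2 scale (adjusted p = 0.0539). With the recipient as a block only Lgals3 changed, and the adjusted p was 0.184 for Lgals1 and 0.248 for the shared probeset. Leaving out any 1 of the 8 hearts except the native heart of recipient 13 took the adjusted p of Lgals1 to between 0.114 and 0.193. The shared probeset had an adjusted p of 0.131 to 0.146 without the native heart of recipient 11 or 13 or the isograft of recipient 11.

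Cell type lists moved here too. Fibroblast genes were higher in 4 of 7, among them periostin (Postn, 6.09 ± 0.83) and the collagen chain Col1a1 (3.60 ± 0.51). Their summed signal was 209 to 268 array medians in isografts and 63.5 to 79.1 in native DA hearts, and their part in the Lgals1 result was not tested.

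Allografts against the native hearts of the same BN recipients gave 4 higher galectin probesets and none lower, against 23.1% and 26.3% of all probesets, and 1 called, against 11.1%. Lgals1 was higher by 0.88 ± 0.16 (limma adjusted p = 0.00033), Lgals8 by 0.57 ± 0.18 (1368960_at, adjusted p = 0.0145) and 0.71 ± 0.20 (1389329_at, adjusted p = 0.00904). This comparison differs in tissue strain, in surgery and in rejection together. It shares the allografts with the rejection comparison. The differences of Lgals9 (0.18 ± 0.21) and the shared probeset (0.15 ± 0.27) had unadjusted p-values of 0.39 and 0.578 in limma.

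**Figure D2:**
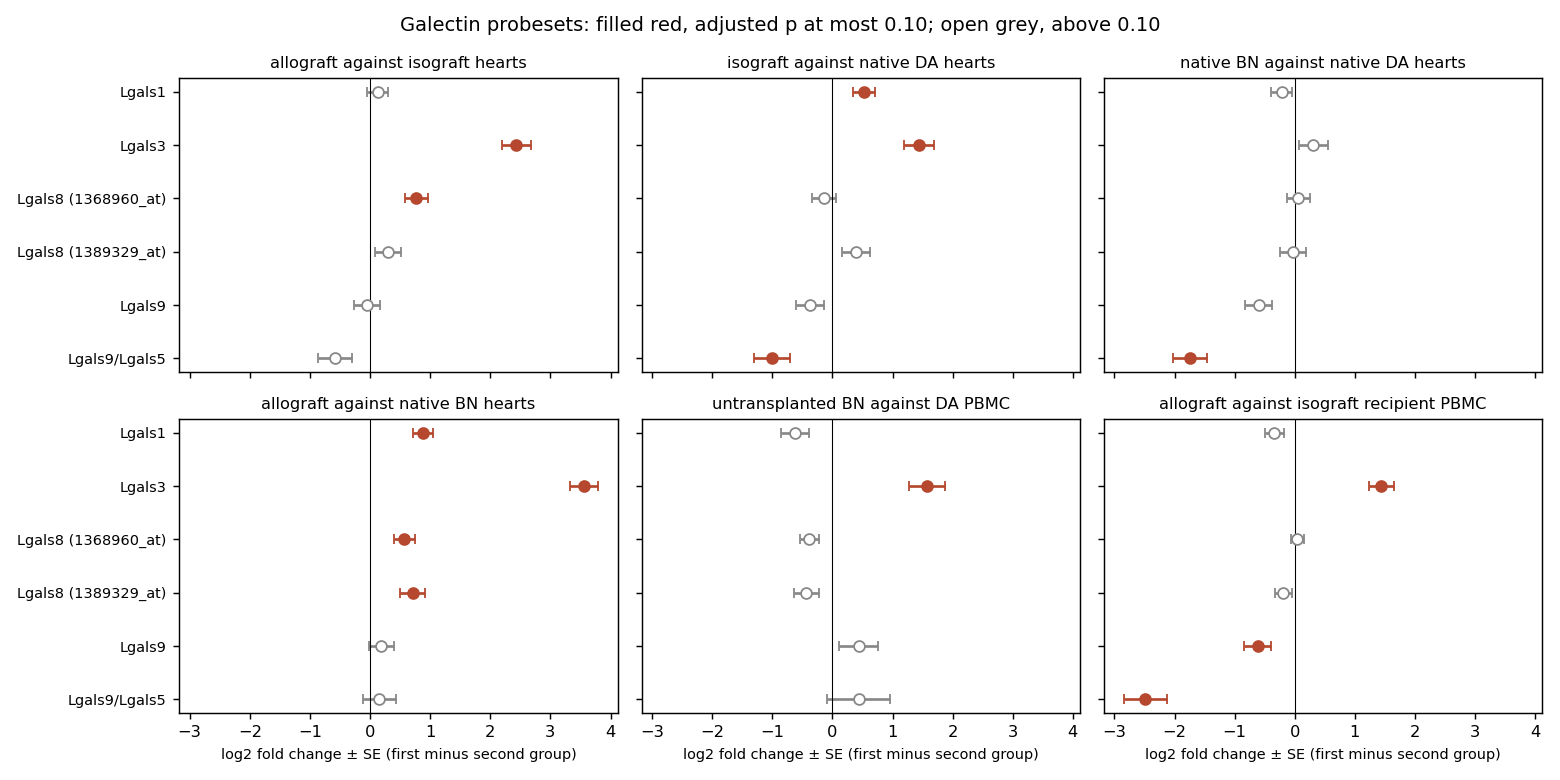
Log2 fold change of each galectin probeset (horizontal axis, first-named group minus the second, bars are the SE) in 6 comparisons; filled points passed an adjusted p of 0.10 and open points did not. Lgals3 lies at 2.43 in rejection and at 1.44 and 1.58 in both PBMC comparisons, and the shared Lgals9/Lgals5 probeset lies at -1.74 between native BN and native DA hearts and at -2.49 between PBMC of allograft and isograft recipients.

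The strain comparison in hearts set native BN against native DA hearts. None of the 6 galectin probesets were higher, where 1.48% of all probesets were, and 1 was lower, where 1.46% were. The same probeset was called, against 0.359% of all probesets. It was the shared Lgals9/Lgals5 probeset, with 2.57, 2.01, 3.10, 2.13 and 1.68 array medians in native BN hearts and 11.5, 5.75, 8.82 and 5.49 in native DA hearts. The groups did not overlap, and the signal was 3.35-fold lower in native BN hearts (-1.74 ± 0.29, limma adjusted p = 0.00399). Without the native DA heart of recipient 11 the difference was -1.54, under a fold change of 3, and remained past the adjusted p.

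Isografts, which are DA tissue, had 1.96, 5.22, 5.58 and 3.46 array medians of the shared probeset and allografts, also DA tissue, 2.29, 2.58, 2.63, 2.46 and 2.56. Recipient 11 held both the highest native heart and the lowest isograft. The difference between allografts and isografts was -0.58 ± 0.29 (adjusted p = 0.133). It passed with only probesets past the signal criterion tested (0.0782) or with trend and robust moderation (0.0846), and without the isograft of recipient 11 it was -0.90 (limma adjusted p = 0.0119). The effect of allograft over isograft differed from that of BN over DA in native hearts by 1.16 ± 0.41 (limma adjusted p = 0.0489). Native hearts differed more. Without the native DA heart of recipient 11 the difference of effects was 0.96 with an adjusted p of 0.106.

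Red cell genes moved with the shared probeset in native hearts. Summed over 6 genes, among which Hbb, the beta chain of haemoglobin, was by far the brightest, they were at 92.5 to 170.2 array medians in native BN hearts, 171 to 291 in native DA hearts, 102 to 181 in isografts and 104 to 193 in allografts. Of the list 2 of 6 genes were lower in native BN than native DA hearts, namely the globin chaperone Ahsp (-2.68 ± 0.61) and the red cell enzyme Bpgm (-1.16 ± 0.25). Ahsp passed the fold limit but was not called, as its signal fell short of the array-median criterion in both groups. The median over the list was -0.85, against -0.02 over all probesets. Hearts hold blood, and its part in this difference was not tested. The genes nearest to the shared probeset over the 18 heart arrays were Rsad2, Bpgm and Slc16a7. Their root mean square differences were 0.42, 0.44 and 0.46 on the log2 scale. Of 10 measured interferon-induced genes 1 was lower in native BN than native DA hearts, Irf7 (-1.01 ± 0.23, limma adjusted p = 0.0318), and none were higher. The median of that list was -0.12, against -0.02 over all probesets, and the part of interferon in this difference was not tested.

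Lgals9 through its own probeset was lower by 0.60 ± 0.22 in native BN hearts and did not pass the test (limma adjusted p = 0.22, unadjusted p = 0.0149). The ratio of the shared probeset to Lgals9 on the same array was lower by 1.14 on the log2 scale (exact permutation test, two-sided, p = 0.0317, adjusted p = 0.19 over the 12 tests).

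The strain comparison in blood set PBMC of untransplanted BN against DA rats. Of the 6 galectin probesets 1 was higher, where 3.58% of all probesets were, and none were lower, where 4.86% were. None were called, against 1.05% of all probesets, and at an unadjusted p under 0.05 Lgals1, Lgals3 and Lgals8 (1368960_at) differed. The ranges of the 3 BN and 3 DA rats did not overlap for any of the 6, which was also true of 28.7% of all probesets.

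Lgals3 had 37.3, 46.0 and 27.4 array medians in BN rats and 17.1, 11.6 and 8.91 in DA rats. It was 2.99-fold higher in BN rats (1.58 ± 0.30, limma adjusted p = 0.00355), a fold change just short of the threshold for a call. Cell type markers differed between the same rats. Of 9 monocyte and macrophage genes 4 were higher in BN rats and none lower, among them the mannose receptor Mrc1 (2.10 ± 0.39), Cd68 (0.99 ± 0.26) and the growth factor receptor Csf1r (0.97 ± 0.27), while the list median was 0.05 and the summed signals overlapped, at 240 to 287 array medians in BN and 223 to 336 in DA rats. T cell genes were lower in 6 of 9 (median -0.76, sums of 399.9 to 446 against 724 to 761), all 5 NK and cytotoxic cell genes were lower, and the neutrophil receptor gene Csf3r was higher (1.96 ± 0.28), 1 of 4 of its list. The part of these cells in the Lgals3 difference was not tested. Lgals1 had 59.6, 63.2 and 54.6 in BN and 95.1, 94.2 and 83.1 in DA rats, and its difference of -0.62 ± 0.24 did not pass (adjusted p = 0.151). The remaining probesets differed by -0.43 to 0.44 on the log2 scale. Interferon-induced genes were lower in BN rats in 7 of 12, with a median of -1.31, led by Ifit3 (-3.17 ± 0.38), while Lgals9 was at 15.1 to 16.3 array medians in BN and at 9.41 to 13.1 in DA rats (0.44 ± 0.32, adjusted p = 0.522). Lgals3bp was lower in BN rats (-1.37 ± 0.28, adjusted p = 0.0054).

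PBMC of allograft recipients against isograft recipients combine the strain of the recipient and rejection. Here 1 galectin probeset was higher, against 6.66% of all probesets, and 2 were lower, against 12%. The shared Lgals9/Lgals5 probeset was called, against 1.04% of all probesets in either direction. Of all changed probesets 35.7% were higher, and this share was 49.5% after quantile normalization and 55.6% on the deposited scale, while that of the untransplanted rats was 42.4%, 53.6% and 60.2%.

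Lgals3 had 72.8, 53.2, 65.5, 48.9 and 53.7 array medians in the allograft recipients, and 13.8 to 28.7 with a median of 23.2 in the 9 isograft recipients. The groups did not overlap and differed 2.71-fold (1.44 ± 0.21, limma adjusted p = 9.66e-05). Set against the difference of the untransplanted strains it was -0.14 ± 0.36 on the log2 scale (adjusted p = 0.957, 95% interval -0.90 to 0.63). Of 9 monocyte and macrophage genes 6 were higher and 1 lower in allograft recipients, with a median of 1.26, but their summed signal overlapped, at 196 to 302 array medians in allograft and 186 to 286 in isograft recipients. The sum is dominated by Lyz2, a lysozyme gene. Neutrophil genes, which a mononuclear preparation should largely lack, were higher in 4 of 4, with sums of 69.0 to 219 against 15.5 to 71.3. The part of either cell type in the Lgals3 result was not tested. Nearest to Lgals3 in profile over the 20 PBMC arrays, centred within transplanted and within untransplanted rats, were Tm6sf1 (root mean square difference 0.17), Tifab (0.19) and Ccl6 (0.22).

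The shared Lgals9/Lgals5 probeset had 8.07, 11.1, 15.3, 7.51 and 6.63 array medians in allograft recipients. In isograft recipients its lowest, median and highest values were 23.6, 70.3 and 109. All isograft recipients lay above all allograft recipients, and the 5.60-fold difference passed the test (-2.49 ± 0.36, limma adjusted p = 0.000105). Untransplanted BN rats had 12.1, 12.7 and 13.9 and untransplanted DA rats 9.50, 10.98 and 8.28, with a difference of 0.44 ± 0.52 (adjusted p = 0.735). The effect between recipients differed from that between untransplanted strains by -2.92 ± 0.63 on the log2 scale (limma adjusted p = 0.0771). It was the only galectin probeset to change in this test of the difference, against 0.348% of all probesets, and it was called, against 0.122%. Of the 20 arrays the adjusted p rose to between 0.101 and 0.195 without any 1 of 13, namely those of allograft recipients 3, 4, 6 and 7, of isograft recipients 12, 17 and 21, and of each untransplanted rat, while the difference stayed between -3.10 and -2.79. The paper lists Lgals5 as a candidate gene suppressed in PBMC relative to the strain effect. Its quantitative PCR with a gene-specific Lgals5 probe, in part of these rats, changed in the same direction as its array.

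**Figure D3:**
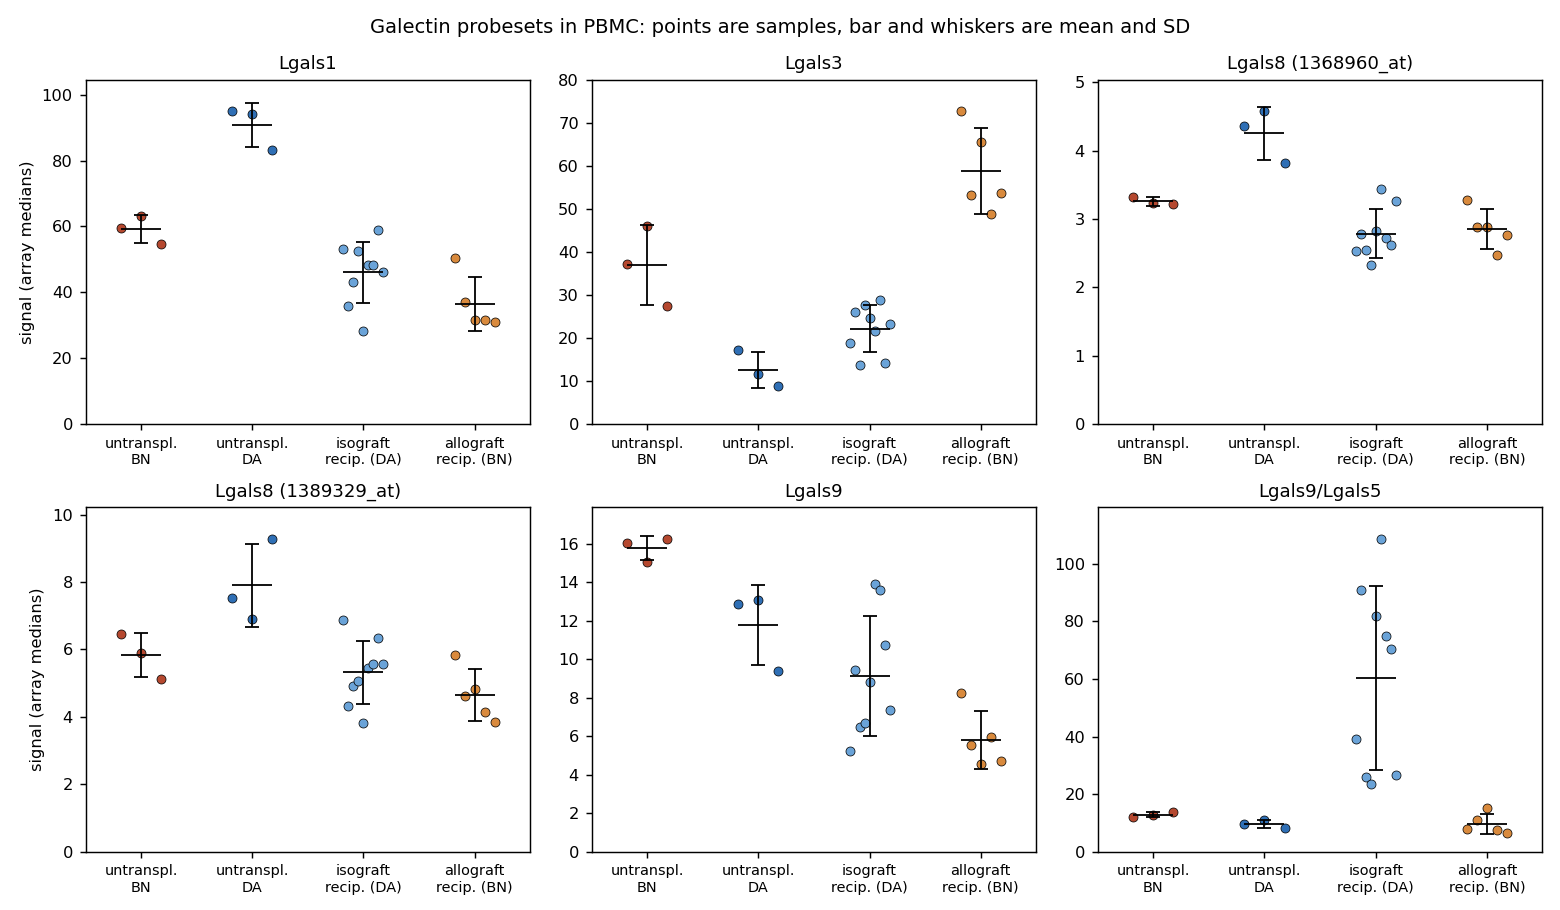
Signal in array medians (vertical axes, each starting at 0) of the 6 galectin probesets in the 4 PBMC groups; each point is a rat, and the long bar and whiskers are the mean and SD. The shared Lgals9/Lgals5 probeset runs from 23.6 to 109 in the 9 isograft recipients and from 6.63 to 15.3 in the other groups, while Lgals3 is higher in both BN groups than in both DA groups, apart from an overlap of untransplanted BN rats (27.4 to 46.0) with isograft recipients (13.8 to 28.7).

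Lgals9 through its own probeset differed in the same direction and less. It was 1.53-fold lower in allograft recipients (-0.62 ± 0.22, limma adjusted p = 0.0726), with 4.55 to 8.27 array medians against 5.22 to 13.9. The ratio of the shared probeset to Lgals9 on the same array was 3.65-fold lower in allograft recipients, without overlap (exact permutation test, two-sided, p = 0.000999, the smallest this design allows, adjusted p = 0.012 over the 12 tests). The Lgals9 change was not past the threshold after quantile normalization or on the deposited scale (adjusted p = 0.124 and 0.121), nor with only these recipients fitted (0.126). It was also lost without any 1 of 7 of the 14 arrays, those of allograft recipients 4, 5, 6 and 7 and isograft recipients 18, 20 and 21, with adjusted p from 0.114 to 0.18.

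Red cell genes moved with the shared probeset between allograft and isograft recipients. Of 7 measured genes 6 were lower in allograft than in isograft recipients and none were higher, with a median of -2.19 against -0.03 over all probesets. The blood group glycoprotein Rhag differed by -3.65 ± 0.51, the membrane skeleton protein Epb42 by -2.92 ± 0.62, Ahsp by -2.29 ± 0.83 and the anion exchanger Slc4a1 by -2.19 ± 0.55. Rhag also differed between untransplanted BN and DA rats (-5.46 ± 0.75, limma adjusted p = 0.000179), where the shared probeset did not pass the test, and it was the only gene of the list to change there. In the test of the difference between both effects none of the 7 genes passed, 4 at an unadjusted p under 0.05 in limma, with a list median of -1.94. Their summed signal was 157 to 249 array medians in allograft recipients, 238 to 617 in isograft recipients, 20.7 to 146 in untransplanted BN and 69.6 to 153 in untransplanted DA rats. Alas2, the first enzyme of haem synthesis in red cell precursors, was at 26.4 to 117 array medians in isograft recipients, 10.5 to 40.2 in allograft recipients and 0.79 to 5.65 in untransplanted rats. Hbb was at 129 to 246, 124 to 155 and 12.1 to 128 in the same order. The isograft recipients with the lowest and the highest shared signal, rats 16 and 18, were also those with the lowest and highest red cell sum, 238 and 617. In untransplanted BN rats 1 to 3 the sums were 20.7, 146 and 122, with shared signals of 12.1, 12.7 and 13.9. In untransplanted DA rats 1 to 3 the sums were 69.6, 153 and 71.9, with shared signals of 9.50, 10.98 and 8.28. Since the 9 isograft recipients fell into 4 with a shared signal of 23.6 to 39.1 and 5 with 70.3 to 109, no correlation is given. The part of red cells or reticulocytes in this result was not tested. The nearest profiles over the 20 PBMC arrays were those of Bpgm (root mean square difference 0.29), Kel (0.31) and Car2 (0.35).

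**Figure D4:**
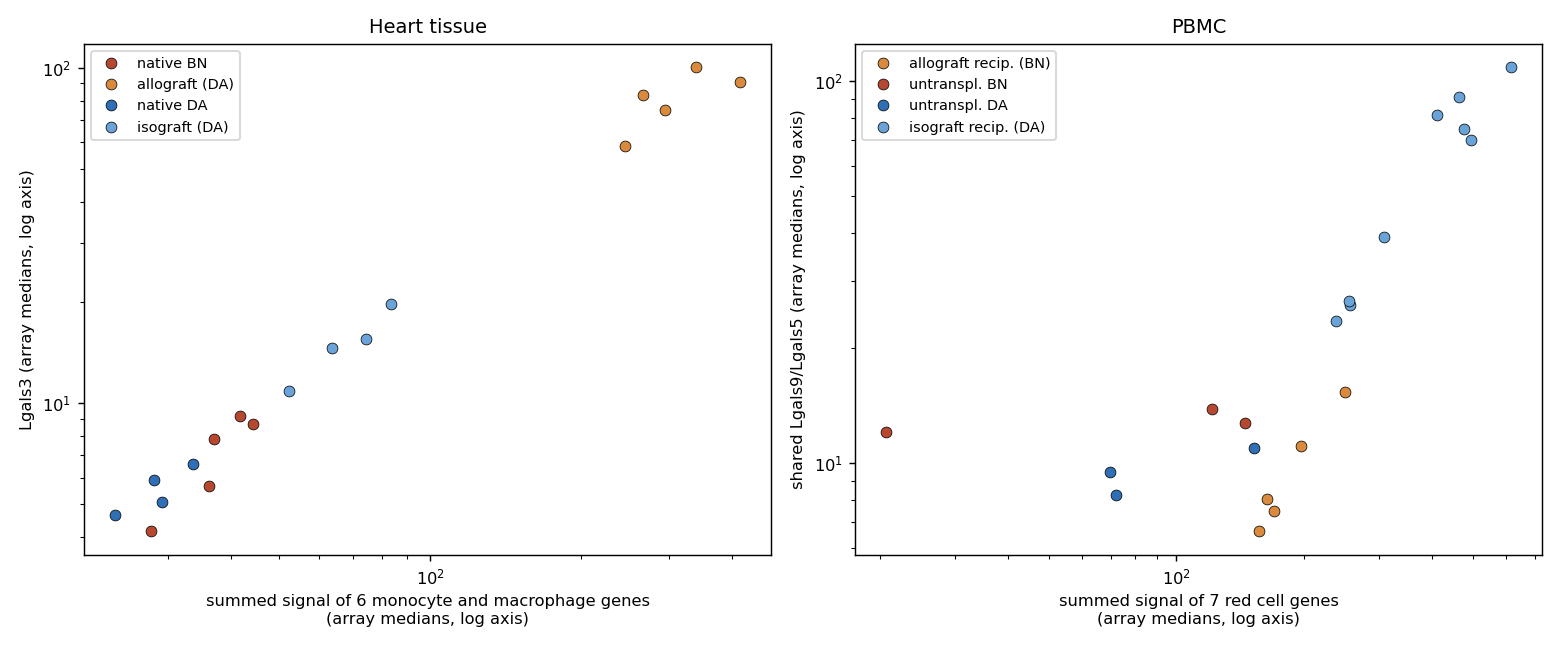
Left, Lgals3 signal against the summed signal of 6 monocyte and macrophage genes in 18 hearts; right, the shared Lgals9/Lgals5 signal against the summed signal of 7 red cell genes in 20 PBMC samples; all axes are logarithmic, in array medians, and points are samples coloured by group. Allografts have both the highest Lgals3 signals (58.6 to 101) and the highest monocyte and macrophage sums (244 to 415), and isograft recipients have the highest shared signals (23.6 to 109).

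Lgals1 and both Lgals8 probesets did not pass the test between recipients. Lgals1 differed by -0.34 ± 0.16 (limma adjusted p = 0.187), and without allograft recipient 3 or isograft recipient 17 its adjusted p was 0.0603 or 0.0438. Lgals8 differed by 0.04 ± 0.11 (1368960_at, 95% interval -0.18 to 0.26) and -0.19 ± 0.14 (1389329_at, 95% interval -0.49 to 0.11). Of the other galectins and galectin-3 binding protein, Lgals12 was higher (0.68 ± 0.26) and Lgalsl (-0.97 ± 0.16) and Lgals3bp (-0.90 ± 0.19) were lower in allograft recipients, 3 of 7 measured. Interferon-induced genes were lower in 6 of 12, with a median of -0.40, and T cell genes were lower in 8 of 9, with a median of -0.79. Counter-receptors and ligands were higher in 7 of 17 and lower in 3, with a median of 0.25, among them Mertk, a receptor for uptake of dying cells (2.50 ± 0.55), and Cd40 (1.71 ± 0.19). Glycan-branching and capping enzymes were higher in 3 of 14 and lower in 4, with a median of 0.04. Nearest in profile to Lgals1 in PBMC were Snrpd2, Ncl and Mtg1 (root mean square differences 0.10, 0.11 and 0.12) and to Lgals9 were Sertad3, Calr and Pdcd6ip (0.21, 0.23 and 0.23).

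Because the shared probeset changed where Lgals9 through its own probeset changed less, the sequences in front of both genes are shown. Lgals5 and Lgals9 are neighbours on chromosome 10 in RefSeq's rat assembly GRCr8, on the same strand, with only the pseudogene Nos2-ps1 between them. The 250 bases before each start, from RefSeq, are printed 5′ to 3′ on the minus strand, at chr10:64355138-64355387 for Lgals5 and chr10:64428071-64428320 for Lgals9, and the capitals mark the bases of Lgals5 that read GATAA on the opposite strand and the bases of Lgals9 aligned with them.
Lgals5: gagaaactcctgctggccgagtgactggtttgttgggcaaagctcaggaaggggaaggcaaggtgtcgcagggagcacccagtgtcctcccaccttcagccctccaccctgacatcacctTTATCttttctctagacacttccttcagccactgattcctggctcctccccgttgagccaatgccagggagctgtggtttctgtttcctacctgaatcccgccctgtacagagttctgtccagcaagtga
Lgals9: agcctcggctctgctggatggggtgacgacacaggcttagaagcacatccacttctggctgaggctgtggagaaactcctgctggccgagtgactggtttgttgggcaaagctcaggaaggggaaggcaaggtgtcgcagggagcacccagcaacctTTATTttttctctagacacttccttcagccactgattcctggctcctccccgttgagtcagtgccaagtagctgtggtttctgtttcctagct
In a global alignment 175 of 181 aligned bases were identical (96.7%), with 6 substitutions and a longest identical run of 82 bases. A further 32 bases of Lgals5, between that run and the capitals, had no counterpart in Lgals9. The capitals differ by the substitution C125T, counted from 1 at the 5′ end of the Lgals5 window, with the Lgals5 base first. GATAA, the core of the motif of erythroid GATA factors, was searched on both strands, with no overlap with the other motifs here. It occurred in the window of Lgals5 and not in those of Lgals9 or Lgals8, and in 23.5% of 33469 rat windows of this length. The pattern TTTCNNTTTC, a core of interferon-stimulated elements, occurred once in both Lgals5 and Lgals9, at 3.4% of all windows, and TTCNNNGAA, the core of gamma-activated sites, in none of the 3 galectin windows, at 7.7% of all. The motifs were chosen after the windows had been read, a match is no evidence of binding, and windows of Lgals1 and Lgals3 were not analysed here. The windows come from a single reference assembly, and the DA and BN sequences of these windows were not compared.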

How the data were processed

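Expression was measured on 1 array per sample, 18 of heart and 20 of PBMC. The authors deposited linear signal intensities, computed with MAS5 per the labels and scaled to a common mean, with the software version not given in the sources used here. Present calls were not used here, and the array median took their place. Heart and PBMC RNA were labelled with different kits and arrays, so levels were not compared between them, apart from the check of cardiomyocyte genes.

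Each array was divided by the median of its non-control probesets (57 controls left out per array) and taken to log2. Gene names came from the platform annotation, updated to GRCr8. Per tissue, a mean for each of 4 groups was fitted with limma 3.58.1 (R 4.3.3), with the study's limits of 10% false discovery and 3-fold change. Adjusted p-values are over all 15866 or 31042 probesets. The limma script was tested on simulated data. Exact permutation tests and intervals used SciPy 1.17.1. A native and a transplanted heart that share a number are from 1 recipient, by the labels and the transplant model. Same-numbered deviations correlated at -0.11 to 0.15, and the recipient's consensus correlation was 0.06. Each rat is a separate animal. Precision is limited by how many arrays there are.

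The members, gene lists and markers were chosen with earlier results of these data known. Lists are described by counts and medians, with the brightest single-symbol probeset of a gene. Named genes are all members, up to 4 members of a list with the largest changes among those that passed, the red cell and monocyte genes, and the 3 nearest profiles for probesets whose group means span at least 1 on the log2 scale. Alternatives were quantile normalization, the deposited scale, 0.25 or 1 array median added, other signal criteria, other fits, a replicate block and leaving out each array.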

Additional observations from a re-analysis of the deposited data

Results flagged for a closer look

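In native hearts of allograft recipients 1 heart, that of recipient 4, stood apart from the other 4 in Lgals8 (1389329_at), with 3.84 array medians. It was the only such sample among 36 sets of 4 to 9 samples examined, of which chance alone would mark about 1 in 20.

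Of 12 pairs of effects compared with limma, 4 differed at the threshold of 0.10 on the adjusted p. In heart 3 of 6 did, against 29.7% of all probesets, and in PBMC 1 of 6 did, against 0.348%. The effect of allograft over isograft in transplanted hearts was larger than that of BN over DA in native hearts by 2.12 on the log2 scale for Lgals3 (adjusted p = 0.000245). The same held by 0.71 for Lgals8 (1368960_at, adjusted p = 0.061), while its other probeset differed by 0.32 and did not pass (1389329_at, adjusted p = 0.51). For the shared Lgals9/Lgals5 probeset the effects differed by 1.16 (adjusted p = 0.0489). There the difference between native hearts was the larger, at -1.74 against -0.58 in transplanted hearts. The adjusted p of Lgals8 (1368960_at) lay between 0.104 and 0.115 when certain single hearts were left out. These were the isograft of recipient 9 or 12 and the native DA heart of recipient 9 or 13. In PBMC the effect of allograft over isograft recipients differed from that of BN over DA in untransplanted rats by -2.92 for the shared probeset (adjusted p = 0.0771), with the batch of each pair of groups cancelled only if it acts equally on both strains.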

How the results depend on the processing

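Between isograft and native DA hearts the 3 changed galectin probesets were 1 with only these groups fitted and 1 with the recipient as a replicate block. The called probeset of native BN against native DA hearts was 0 of 6 with 1 array median added. In untransplanted rats the changed count of 1 was 3 with 1 array median added, 2 with only probesets past the signal criterion tested, and 2 with trend and robust moderation. The called count of 0 there was 1 after quantile normalization and 1 on the deposited scale. Between allograft and isograft recipients the called count of 1 was 2 after quantile normalization. Untransplanted rats 1 to 3 of each strain share only a number. Their same-numbered deviations correlated at 0.02, 0.06 and 0.15, and with the number as a replicate block 0 galectin probesets changed (Lgals3 adjusted p = 0.211) and 0 of all probesets did. The block changed no other galectin count.

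Leaving out each array in turn, changed counts ran from 1 to 2 for isograft against native DA hearts and from 0 to 1 for the difference in PBMC. They ran from 2 to 3 for allograft against isograft hearts. For the difference of effects in heart and for PBMC of allograft against isograft recipients they ran from 2 to 4. Called counts ran from 0 to 1 for isograft against native DA hearts, native BN against native DA hearts, untransplanted BN against DA PBMC and the difference in PBMC. Signs turned only for differences that did not pass the test. On the deposited scale Lgals9 in rejection was 0.032 and Lgals8 (1389329_at) between native hearts 0.013. Leaving out single arrays, Lgals9 in rejection ran from -0.20 to 0.14, Lgals8 between native hearts from -0.051 to 0.22 (1368960_at) and -0.17 to 0.12 (1389329_at), Lgals8 (1368960_at) between recipients from -0.0093 to 0.093, and Lgals3 in the PBMC difference from -0.39 to 0.083. The cause of these changes was not tested. The deposited scale moved the median log2 difference of all probesets from -0.08 to 0.08 in untransplanted rats and from -0.03 to 0.10 between recipients.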
